A study of Mus musculus with 10 samples.

Results

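Genes of the cell cycle and of DNA replication were followed in cells sorted from mouse colon as regulatory T cells (Tregs). The set holds 40 genes, picked by name from the 54532 genes of the count table. Of these, 16 act mainly in the passage from G1 into S phase and in DNA synthesis, and 24 act mainly from G2 to the end of mitosis. They are called G1/S genes and G2/M genes here. The Tumor group (5 libraries) held cells sorted as Tregs from colon tumours of mice carrying both Apc Min/+, a truncating allele that gives intestinal adenomas, and Foxp3 DTR, an allele that puts a diphtheria toxin receptor under the Treg gene Foxp3. The WT group (5 libraries) held cells sorted as Tregs from the colon of Foxp3 DTR mice, so both groups carry that allele, and the labels give the Apc genotype and the tumour origin as the differences between them. All mice were C57BL/6 males aged 16 weeks. Cells were gated on CD45, CD3, CD4, CD25 and GFP, and their RNA was sequenced by Smart-seq2, which copies whole transcripts from small numbers of cells. Whether each library is a separate animal is not stated in the labels. The p-values therefore measure only the spread between libraries, which may be technical. The numbers of cells, tumours and animals behind each library are not given in the sources used here.

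As background, a cell enters S phase when D cyclins and then E cyclins with their kinases release E2F factors from the RB family of repressors. E2F factors drive genes for the Mcm2 to Mcm7 helicase, for the sliding clamp Pcna and for the enzymes that make deoxynucleotides. Genes for mitosis are kept off in resting cells by the DREAM complex, which binds a promoter element called the CHR, and are switched on later by B-Myb and FoxM1. Tregs of peripheral tissues are known for a larger share of cycling cells than resting Tregs of blood and lymph nodes.

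The promoters of 32 of the 40 genes were found in the RefSeq promoter table (build GRCm38.p6, 250 bases before to 50 bases after the start). They were searched on both strands for 3 kinds of motif. The CHR was taken as TTTGAA and, as its variant, TTCGAA. The E2F site was taken as TTCCCGC, with the variants TTCGCGC and also TTGCCGC and also TTGGCGC. The CCAAT box was taken as those letters. The 4 promoters printed belong to the most abundant G1/S and G2/M genes that hold any of these letters, and they need not show what is usual in their class. Capitals mark the matches. Pcna lies at chr2:132253131-132253430 on the minus strand, Mcm6 at chr1:128359656-128359955 on the minus strand, Hmgb2 at chr8:57511593-57511892 on the plus strand and Mki67 at chr7:135716330-135716629 on the minus strand.
Pcna: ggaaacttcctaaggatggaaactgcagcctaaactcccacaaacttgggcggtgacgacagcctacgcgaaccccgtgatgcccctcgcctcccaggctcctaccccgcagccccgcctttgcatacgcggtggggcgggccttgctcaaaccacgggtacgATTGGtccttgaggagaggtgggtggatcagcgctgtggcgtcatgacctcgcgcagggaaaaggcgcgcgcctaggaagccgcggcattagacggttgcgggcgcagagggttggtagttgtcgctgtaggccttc
Mcm6: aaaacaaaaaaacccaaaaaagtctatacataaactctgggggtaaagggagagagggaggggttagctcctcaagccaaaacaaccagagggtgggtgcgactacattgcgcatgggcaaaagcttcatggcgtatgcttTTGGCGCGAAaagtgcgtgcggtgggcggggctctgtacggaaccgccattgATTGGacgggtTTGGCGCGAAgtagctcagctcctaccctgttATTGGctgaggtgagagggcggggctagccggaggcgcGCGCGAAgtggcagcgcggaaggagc
Hmgb2: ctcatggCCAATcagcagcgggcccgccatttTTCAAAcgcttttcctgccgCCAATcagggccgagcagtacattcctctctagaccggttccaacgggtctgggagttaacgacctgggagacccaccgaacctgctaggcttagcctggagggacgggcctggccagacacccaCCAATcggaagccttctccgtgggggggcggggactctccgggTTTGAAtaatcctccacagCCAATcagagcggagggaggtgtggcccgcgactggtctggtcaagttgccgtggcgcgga
Mki67: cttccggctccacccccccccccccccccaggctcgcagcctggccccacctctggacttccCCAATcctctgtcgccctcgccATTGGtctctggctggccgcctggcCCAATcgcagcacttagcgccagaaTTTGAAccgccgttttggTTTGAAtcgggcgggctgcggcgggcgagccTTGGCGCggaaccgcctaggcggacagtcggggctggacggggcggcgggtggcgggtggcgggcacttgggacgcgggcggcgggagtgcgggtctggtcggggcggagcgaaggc
In the Mcm6 promoter 5 E2F matches were found, of which 2 pairs overlap, TTGGCGC on one strand and TTCGCGC on the other, beside 2 CCAAT boxes. The Hmgb2 promoter held 2 CHR matches and 4 CCAAT boxes, and the Mki67 promoter 2 CHR matches, 1 E2F match and 3 CCAAT boxes. The Pcna window held 1 CCAAT box.

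The 2 classes held different letters. E2F matches lay in 7 of the 13 G1/S promoters (53.8%), against 9.69% of all 27025 promoters, and in 3 of the 19 G2/M promoters (15.8%). CHR matches lay in 15 of the 19 G2/M promoters (78.9%), against 19.4% of all promoters, and in 2 of the 13 G1/S promoters (15.4%). CCAAT boxes lay in 26 of the 32 (81.2%), against 37.9% of all promoters. A match is a string of letters and not a measured binding site.

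Total counts were between 3054435 and 7747699 in Tumor libraries and between 1676229 and 8412887 in WT libraries. The libraries differed in more than their group. The 14 genes termed pan-T (Cd3d, Cd3e, Cd4, Lck and others of the T cell receptor machinery) summed to between 4028 and 9071 CPM (counts relative to library size, scaled by the trimmed mean of M values, TMM) in Tumor libraries and to between 241 and 1521 CPM in WT libraries, with none of the 14 at 0 in any library. Foxp3 averaged 92.2 ± 40.4 CPM in Tumor and 16.6 ± 14.97 CPM in WT (SD, n = 5 each, edgeR adjusted p = 0.0560), and all 7 genes of the sort markers were detected in every library. With TMM scaling edgeR called 3 of the 7 sort markers higher in Tumor (Cd3d, Cd3g and Il2ra, adjusted p = 0.0460, 0.0153 and 0.0436). It also called 7 of the 14 pan-T genes higher, against 1.37% of all genes tested. In WT 1 and WT 2, Foxp3 stood at 9.36 and 3.87 CPM and the co-receptor gene Cd4 at 8.89 and 26.4 CPM. The low T cell transcripts go against the sort label of the WT libraries, WT 1 and WT 2 most, so the WT values below are levels of those libraries and not shown to be levels of Tregs. The 16 colon epithelial genes summed to between 73.3 and 4901 CPM in Tumor libraries, with 7 of them at 0 in Tumor 2, against 35900 and 40473 CPM in WT 1 and WT 2 and between 171 and 221 CPM in WT 3, WT 4 and WT 5. The 12 macrophage genes summed to between 1470.2 and 6202 CPM in Tumor libraries and to between 67.6 and 193 CPM in WT libraries, where C1qa, Apoe and Itgam were at 0 in WT 3. Of the 11 macrophage genes tested with TMM scaling, edgeR called 5 higher in Tumor. Plasma cell genes reached 13695 CPM in WT 3. Receptor genes of olfactory and vomeronasal neurons, taken as a background density, lay at between 1.06 and 2.03 CPM per kilobase in Tumor libraries and at 2.29, 1.22, 4.20, 2.32 and 3.46 in WT 1 to WT 5.

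**Figure D1:**
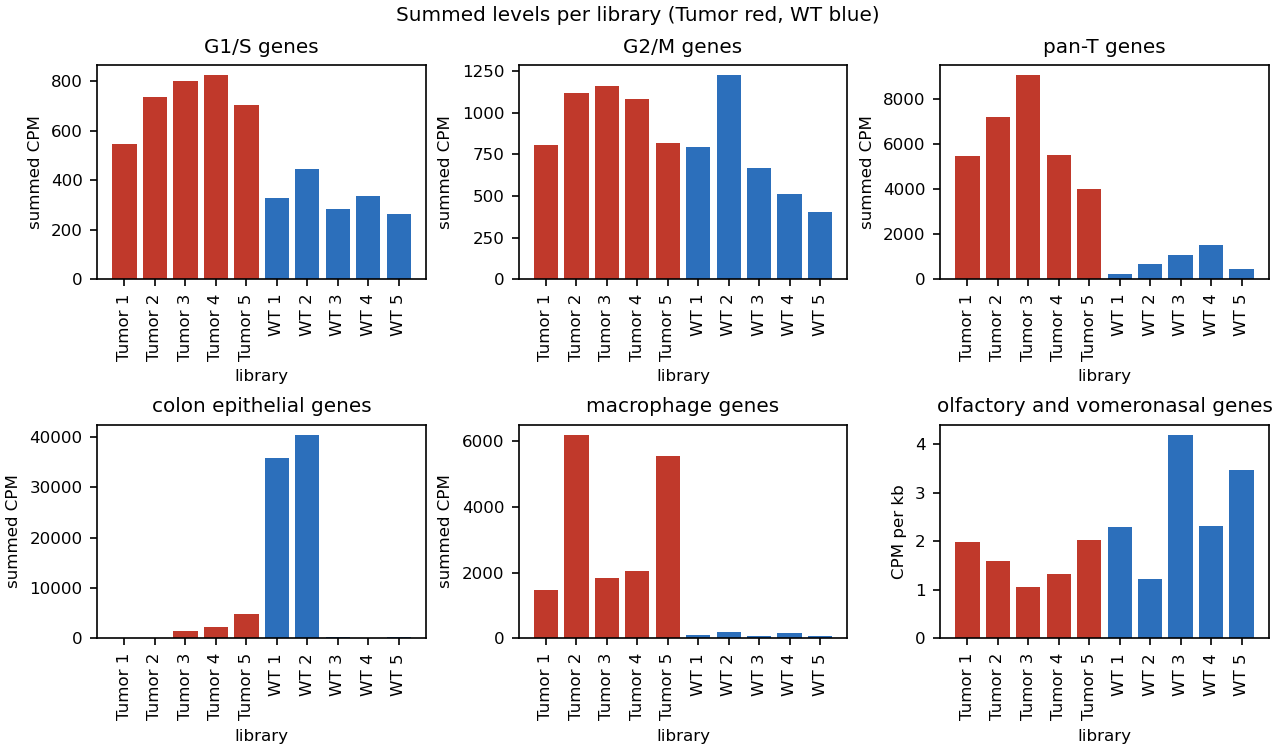
Summed level in each of the 5 Tumor (red) and 5 WT (blue) libraries, in CPM, of the 16 G1/S genes, the 24 G2/M genes, the 14 pan-T genes, the colon epithelial genes and the macrophage genes, and the density of olfactory and vomeronasal receptor genes in CPM per kilobase. The G1/S sums of the 5 Tumor libraries all lie above those of the 5 WT libraries, as do sums of antiproliferative Btg and Tob genes (not drawn). The G2/M sums overlap (divided by the pan-T sums, the 40 genes together are higher in WT). Pan-T and macrophage sums are high in Tumor, and epithelial sums are high in WT 1 and WT 2.

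Differential expression was tested in one fit of all 21414 genes that passed the filter on low counts, and all 40 cell cycle genes were among them. With TMM scaling, none of the 40 was called at an adjusted p below 0.05 between Tumor and WT in edgeR's quasi-likelihood test (0 higher, 0 lower), whereas 1.37% of all genes tested were called higher (293) and 0.219% lower (47). At an unadjusted p below 0.05 in edgeR, 6 of the 40 were higher in Tumor (15%, against 7.75% of all genes), namely Mcm2, Mcm3, Mcm4, Mcm6, Pcna and Cks1b, and 0 were lower (against 8.31% of all genes). DESeq2 called 2 of the 40 higher, Mcm4 (adjusted p = 0.0375) and Mcm6 (adjusted p = 0.0255), against 3.18% of all genes higher (682) and 4.53% lower (969). The limma voom test called 1, Mcm6 (adjusted p = 0.0346), against 2.21% of all genes higher. Without the filter on low counts edgeR also called Mcm6 (adjusted p = 0.0475), against 0.934% of all genes higher. No gene of the 40 was called higher with RLE size factors (0.985% of all genes), without composition factors (1.04%), with a filter of 10 CPM in 5 libraries (2.1%) or with a replicate block (0.644%).

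The estimates leaned upwards most in the G1/S genes. A log2 fold change (Tumor over WT) above 0 was found for 15 of the 16 G1/S genes and 14 of the 24 G2/M genes, so for 29 of 40 in all (72.5%), against 43.8% of all genes. The median log2 fold change was 0.98 for G1/S genes and 0.13 for G2/M genes, against -0.20 for all genes tested. Scaling to pan-T genes lowered every one of these: the medians became -2.46 for G1/S genes, -3.33 for G2/M genes and -3.66 for all genes, a shift of -3.47 for all genes. On that scale 35 of the 40 were called lower in Tumor (87.5%), against 91.2% of all genes (19519), and 0 were called higher, against 0.0887% of all genes (19). That shift put 29 of the 40 genes from above to below 0, and the 11 genes below 0 with TMM stayed there. With scalings that moved all genes less the count above 0 stayed close to that with TMM: 27 of 40 with RLE size factors (38.4% of all genes), 28 without composition factors (37.9%) and 27 with DESeq2 (38.4%). As these are bulk measurements, fewer cells of a type and less RNA per cell cannot be told apart.

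**Figure D2:**
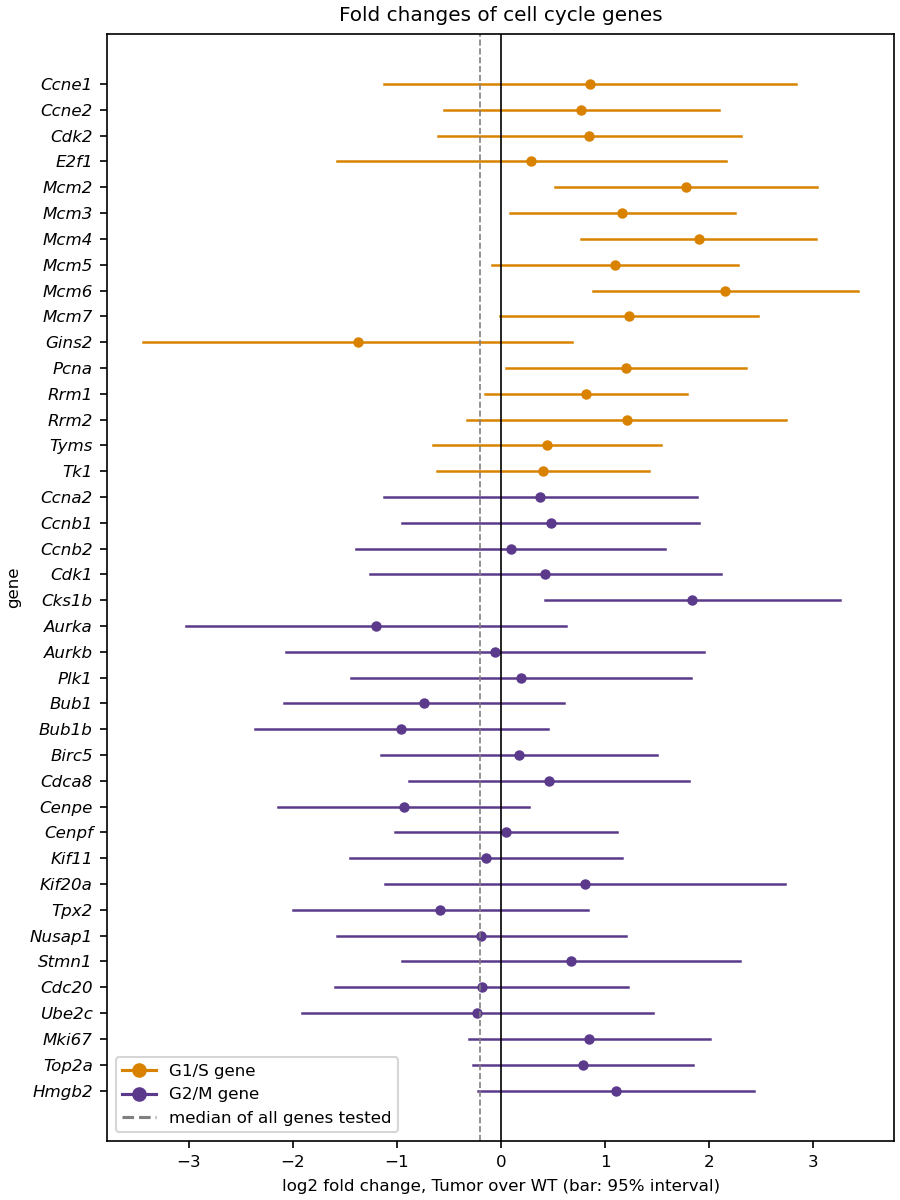
Log2 fold change, Tumor over WT, of each of the 40 genes with TMM scaling, with its 95% interval as a bar; G1/S genes in orange, G2/M genes in purple, and the median of all genes tested (-0.20) as a dashed line. The intervals of Mcm2, Mcm3, Mcm4, Mcm6, Pcna and Cks1b lie above 0, those of the other genes include it, and with pan-T scaling all 40 values are below 0.

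Summed over the 16 G1/S genes, the libraries held 544, 737, 798, 822 and 703 CPM in Tumor, against 329, 446, 285, 334 and 262 CPM in WT. The 2 groups did not overlap, and the share over all genes was not taken. Among the further cell cycle lists described below, the sums of antiproliferative Btg and Tob genes did not overlap either. They were 982 to 1993 CPM in Tumor and 224 to 809 CPM in WT. Nor did the sums of D cyclins and their kinases, of RB, E2F, DREAM and FoxM1 genes and of further replication genes overlap. Those of kinase inhibitors, further mitosis genes and repair genes did. Summed over the 24 G2/M genes, the libraries held 805, 1118, 1159, 1083 and 819 CPM in Tumor, against 794, 1225, 666, 512 and 402 CPM in WT. WT 2 was the highest library of all. The highest of the 10 libraries was a Tumor library for 14 of the 16 G1/S genes and for 12 of the 24 G2/M genes, a count not taken over all genes. Relative to pan-T transcripts the order of the groups turned: the sum of all 40 genes was 0.216 to 0.378 of the pan-T sum in Tumor libraries, against 0.556 to 4.65 of it in WT libraries.

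Of the 8 role groups, origin licensing and firing had the highest median log2 fold change (1.23). Pan-T scaling turned it to -1.91, against a median of -3.66 for all genes. Mcm2 to Mcm7 encode the 6 subunits of the ring-shaped helicase that is loaded at replication origins in G1 and unwinds DNA in S phase. The median of their log2 fold changes was 1.502, against -0.20 for all genes tested. All 6 were above 0 in each fit other than pan-T scaling (medians 1.24 to 1.88). With pan-T scaling all 6 were below 0 (median -1.88, against -3.66 for all genes). Their median density, which was not set against that of other gene sets, was 7.10 to 12.9 CPM per kilobase in Tumor libraries. In WT libraries it was 1.75 to 5.42, without overlap. In WT 3 and WT 5 it lay below the receptor gene density of the library (1.75 against 4.20, and 3.06 against 3.46). In the other libraries it lay above.

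Mcm6 (ENSMUSG00000026355, chromosome 1, 128331590 to 128359664, mm10) had 81.8, 193, 136, 74.2 and 91.8 CPM in Tumor libraries, against 13.8, 35.4, 7.04, 60.1 and 12.7 CPM in WT libraries. The lowest Tumor library lay above the highest WT library, which was WT 4. The counts behind these values were between 291 and 837 in Tumor and between 15 and 256 in WT. Mcm6 had a log2 fold change of 2.16 ± 0.61 (SE; 95% interval 0.88 to 3.43; edgeR adjusted p = 0.0843), and -0.99 ± 0.76 with pan-T scaling. Of the 10 fits that leave out one library, the one without WT 4 called Mcm6 (2.76, edgeR adjusted p = 0.0296), against 1.52% of all genes higher.

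Mcm4 (ENSMUSG00000022673, chromosome 16, 15623897 to 15637400) had 21.9, 51.4, 44.5, 97.6 and 57.8 CPM in Tumor, against 12.9, 12.9, 17.4, 7.64 and 22.7 CPM in WT. Of the Tumor libraries only Tumor 1 lay inside the WT range, just under WT 5. The Mcm4 log2 fold change was 1.90 ± 0.54 (SE; 95% interval 0.77 to 3.02; edgeR adjusted p = 0.0852). Mcm3 (ENSMUSG00000041859, chromosome 1, 20802968 to 20820312) had 49.5, 34.4, 48.5, 27.7 and 69.5 CPM in Tumor, against 12.4, 17.1, 23.0, 36.8 and 13.2 CPM in WT. Tumor 2 and Tumor 4 lay below WT 4, and the other 3 Tumor libraries lay above all of WT. For Mcm3 the log2 fold change was 1.17 ± 0.52 (SE; 95% interval 0.09 to 2.24; edgeR adjusted p = 0.275).

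The other 3 subunits overlapped between the groups. Mcm2 averaged 45.9 ± 21.6 CPM in Tumor and 13.3 ± 8.07 CPM in WT (SD, n = 5 each), a log2 fold change of 1.78 ± 0.60 (SE; edgeR adjusted p = 0.156). Mcm5 averaged 34.3 ± 14.0 CPM in Tumor and 15.9 ± 7.47 CPM in WT, a log2 fold change of 1.10 ± 0.56 (edgeR adjusted p = 0.347). Mcm7 averaged 42.7 ± 22.6 CPM in Tumor and 18.03 ± 11.4 CPM in WT, a log2 fold change of 1.23 ± 0.59 (edgeR adjusted p = 0.317). Mcm7 overlaps Cops6 and Ap4m1 on the opposite strand, and as the strand setting of the counting is not given, their reads cannot be told apart.

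Gins2, a subunit of the GINS complex that joins the helicase when an origin fires, had the lowest log2 fold change of all 40. It had 7.87, 0, 10.6, 7.81 and 3.44 CPM in Tumor, against 11.0, 21.8, 5.16, 1.46 and 38.6 CPM in WT (ENSMUSG00000031821, chromosome 8, 120578633 to 120589304). The groups overlapped, with WT 4 below 4 of the 5 Tumor libraries. The 0 in Tumor 2 allows a level of up to 1.24 CPM, which is 3 counts and covers counting error only. Gins2 had a log2 fold change of -1.38 ± 0.98 (SE; 95% interval -3.44 to 0.68; edgeR adjusted p = 0.497). It overlaps Gse1 on the opposite strand.

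**Figure D3:**
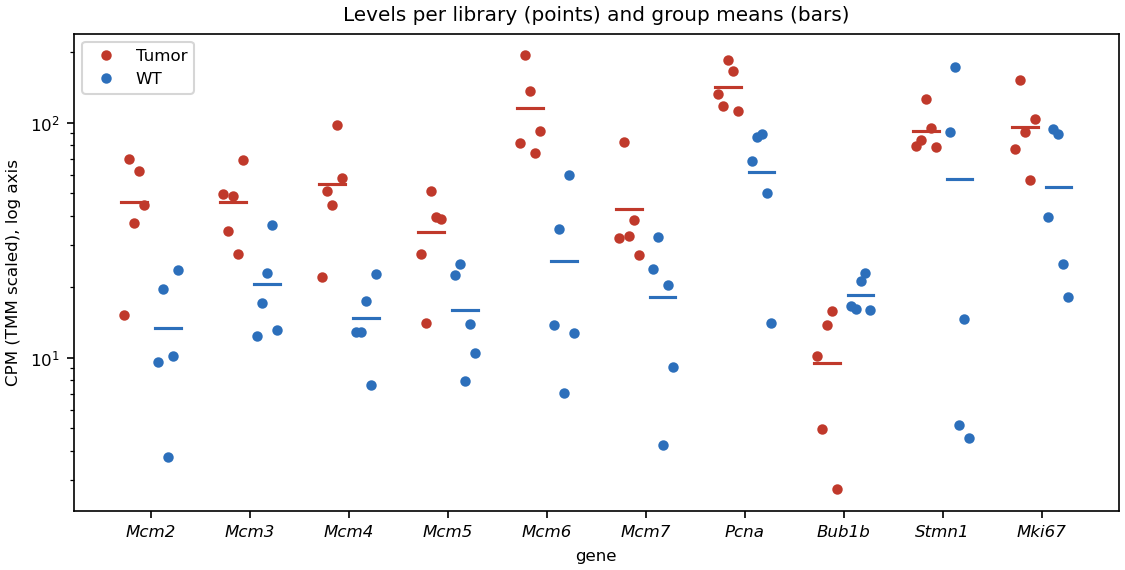
Level of 10 genes in each library (points, Tumor in red and WT in blue) with the group mean as a bar, in TMM-scaled CPM on a log axis. With this scaling (pan-T scaling puts all 40 genes lower in Tumor) Tumor points lie above all WT points for Mcm6 and Pcna, below them for Bub1b, and overlap them for the other 7 genes; Stmn1 is high in WT 1 and WT 2 and low in WT 3, WT 4 and WT 5.

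Among the genes of the replication clamp and of deoxynucleotide supply, all 5 had log2 fold changes above 0 (median 0.82). This compares with 43.8% of all genes, and none of the 5 was called. Pcna, the clamp that holds the polymerases on DNA, had 132, 117, 185, 165 and 112 CPM in Tumor, against 68.8, 86.5, 89.7, 50.2 and 14.1 CPM in WT (ENSMUSG00000027342, chromosome 2, 132249162 to 132253314). The groups did not overlap, and the WT libraries spread 6.38-fold from the lowest to the highest, against 1.65-fold within Tumor. Pcna had a log2 fold change of 1.201 ± 0.55 (SE; 95% interval 0.05 to 2.35; edgeR adjusted p = 0.292). The table also lists Pcna-ps1 and Pcna-ps2, copies that could share reads with it.

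Rrm1, the large subunit of ribonucleotide reductase, had 38.2, 37.7, 89.8, 81.8 and 76.4 CPM in Tumor, against 32.3, 37.6, 36.1, 31.3 and 46.7 CPM in WT (ENSMUSG00000030978, chromosome 7, 102441695 to 102469771). Tumor 3, Tumor 4 and Tumor 5 lay above all of WT, while Tumor 1 and Tumor 2 lay within it. Rrm1 had a log2 fold change of 0.82 ± 0.46 (SE; edgeR adjusted p = 0.391). Tk1, the thymidine kinase of the salvage route, had 30.3, 66.7, 44.3, 41.0 and 24.8 CPM in Tumor, against 29.3, 44.2, 31.0, 35.3 and 16.3 CPM in WT (ENSMUSG00000025574, chromosome 11, 117815526 to 117826092). The groups overlapped, and the log2 fold change of Tk1 was 0.40 ± 0.49 (SE; edgeR adjusted p = 0.705). Tk1 shares its locus with Afmid on the opposite strand.

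Rrm2, the small and cell-cycle-limited subunit of the reductase, averaged 28.7 ± 24.7 CPM in Tumor and 12.4 ± 7.09 CPM in WT (log2 fold change 1.21 ± 0.73; edgeR adjusted p = 0.423). Its Tumor libraries spread 22.5-fold. Tyms, which makes thymidylate, averaged 40.05 ± 8.67 CPM in Tumor and 29.4 ± 18.3 CPM in WT (log2 fold change 0.44 ± 0.52; edgeR adjusted p = 0.701). WT 1 and WT 2 held more Tyms (46.8 and 51.4 CPM) than WT 3, WT 4 and WT 5 (20.7, 12.7 and 15.4 CPM).

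The G1/S cyclins, their kinase and E2f1 had log2 fold changes between 0.29 and 0.86 (median 0.81). All 4 were above 0, against 43.8% of all genes, and 0 were called. Cdk2, the kinase of cyclins E and A, had 17.7, 13.3, 14.0, 37.6 and 21.6 CPM in Tumor, against 17.6, 19.5, 1.41, 9.83 and 9.07 CPM in WT (ENSMUSG00000025358, chromosome 10, 128697939 to 128705031). WT 1 and WT 2 lay within the Tumor range, and WT 3 was by far the lowest. Cdk2 had a log2 fold change of 0.85 ± 0.70 (SE; edgeR adjusted p = 0.559), and it overlaps Pmel on the opposite strand.

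Ccne2, one of the 2 E cyclins that activate Cdk2, had 38.8, 10.4, 16.1, 17.04 and 15.1 CPM in Tumor, against 8.89, 14.1, 7.98, 14.2 and 11.8 CPM in WT (ENSMUSG00000028212, chromosome 4, 11191351 to 11204779). Tumor 1 stood highest, and Tumor 2 lay within the WT range. Ccne2 had a log2 fold change of 0.77 ± 0.63 (SE; edgeR adjusted p = 0.557), and it overlaps Ints8 on the opposite strand. E2f1, a transcriptional activator of S phase genes, had 2.25, 3.32, 3.57, 14.0 and 21.3 CPM in Tumor, against 3.51, 2.63, 16.0, 4.73 and 9.98 CPM in WT (ENSMUSG00000027490, chromosome 2, 154559407 to 154569892). The groups overlapped fully for E2f1, with a log2 fold change of 0.29 ± 0.89 (SE; edgeR adjusted p = 0.896) that was below 0 under DESeq2's size factors. Ccne1, the other E cyclin, averaged 9.65 ± 10.3 CPM in Tumor and 5.35 ± 5.99 CPM in WT (log2 fold change 0.86 ± 0.95; edgeR adjusted p = 0.675).

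**Figure D4:**
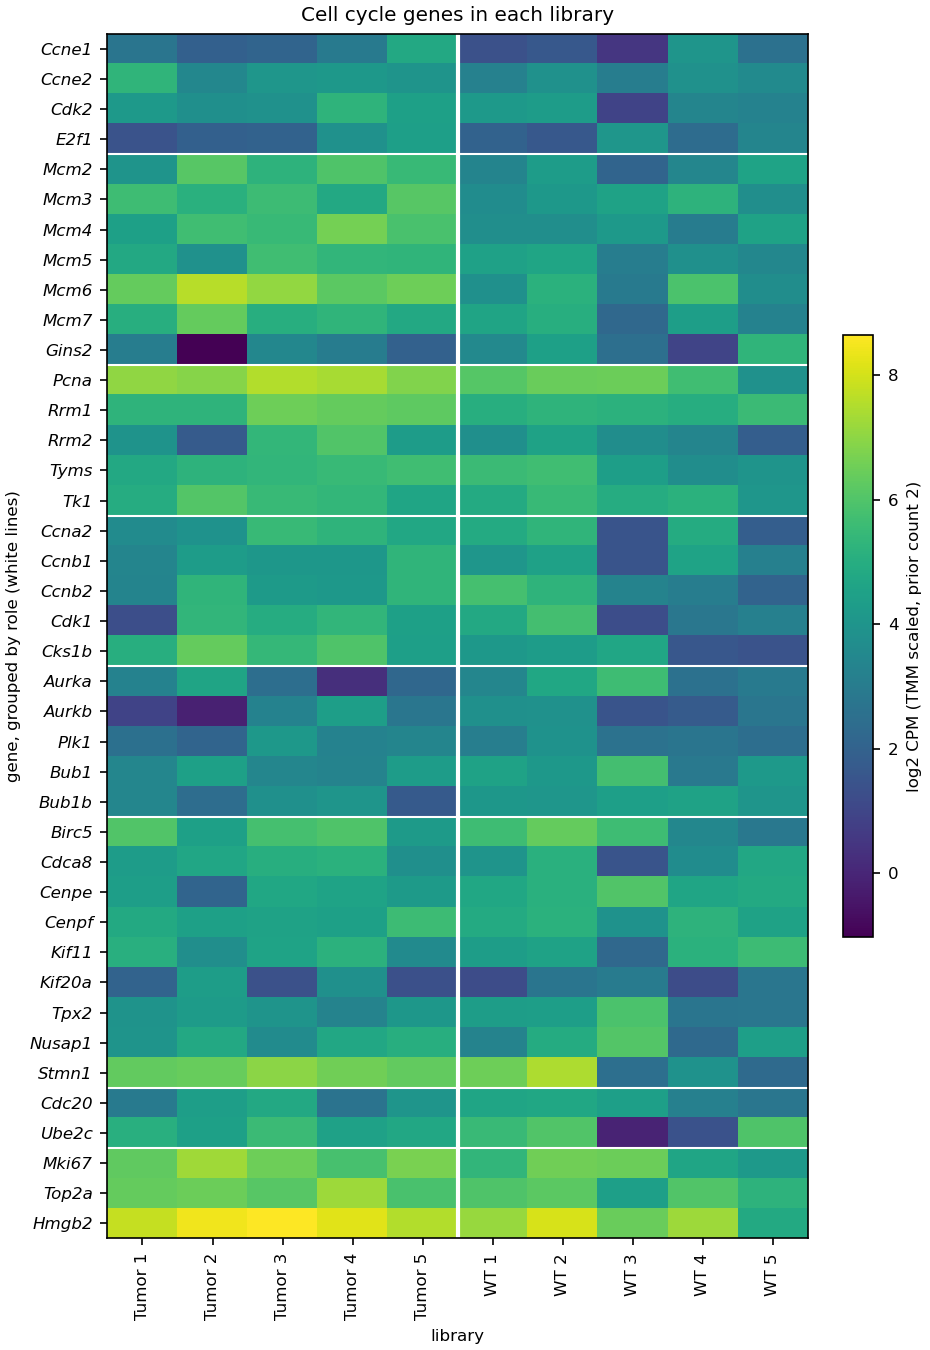
Level of the 40 genes (rows, grouped by role) in the 5 Tumor and 5 WT libraries (columns), as log2 CPM with TMM scaling and a prior count of 2; yellow is high and dark purple low. With TMM scaling the Mcm genes and Pcna are brighter on the Tumor side, an order that pan-T scaling turns; among the mitotic genes the WT columns differ from each other, with Stmn1, Ccnb2 and Cdk1 bright in WT 1 and WT 2, and Aurka, Bub1, Cenpe, Tpx2 and Nusap1 bright in WT 3.

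The G2/M genes were less uniform. Their log2 fold changes ran between -1.2 (Aurka) and 1.84 (Cks1b), with 1 of 24 at an unadjusted p below 0.05 in edgeR and 0 called. Cks1b, a small protein that binds cyclin-dependent kinases, had 32.6, 82.1, 42.7, 63.2 and 21.3 CPM in Tumor, against 17.1, 19.6, 25.8, 2.55 and 2.27 CPM in WT (ENSMUSG00000028044, chromosome 3, 89415472 to 89418383). Tumor 5 lay below WT 3, and the other Tumor libraries lay above all of WT. Cks1b had a log2 fold change of 1.84 ± 0.68 (SE; 95% interval 0.42 to 3.25; edgeR adjusted p = 0.195).

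Ccna2, the cyclin of S phase and G2, had 12.1, 14.5, 45.1, 37.8 and 26.8 CPM in Tumor, against 29.5, 39.5, 2.35, 29.8 and 3.18 CPM in WT (ENSMUSG00000027715, chromosome 3, 36564865 to 36572150). WT 3 and WT 5 were the lowest, and the other WT libraries lay within the Tumor range. Ccna2 had a log2 fold change of 0.38 ± 0.72 (SE; edgeR adjusted p = 0.825), and it overlaps Exosc9 on the opposite strand. Ccnb2, a partner of Cdk1 at mitotic entry, had 9.55, 38.5, 18.5, 17.04 and 39.5 CPM in Tumor, against 55.5, 37.9, 9.39, 8.01 and 3.63 CPM in WT (ENSMUSG00000032218, chromosome 9, 70407692 to 70421547). WT 1 and WT 2, which had the highest epithelial sums, stood at the top of the WT range and the other 3 below every Tumor library. Ccnb2 had a log2 fold change of 0.09 ± 0.71 (SE; edgeR adjusted p = 0.960).

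Ccnb1, the other B cyclin, averaged 20.3 ± 11.0 CPM in Tumor and 14.5 ± 8.95 CPM in WT (log2 fold change 0.48 ± 0.68; edgeR adjusted p = 0.755). Cdk1, the kinase that starts mitosis, had 1.97, 39.8, 30.5, 39.8 and 21.6 CPM in Tumor, against 27.4, 53.9, 1.88, 6.55 and 8.62 CPM in WT. Tumor 1, with 7 counts, stood apart from the other Tumor libraries, and WT 2 was the highest of all. Cdk1 had a log2 fold change of 0.43 ± 0.81 (SE; edgeR adjusted p = 0.824). The table lists the copies Ccnb1-ps and Ccnb2-ps, which could share reads with both B cyclins.

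Among the mitotic kinases and spindle checkpoint genes, 4 of 5 log2 fold changes were below 0 (median -0.74), and 0 of 5 were called. The 1 above 0 stands against 43.8% of all genes above 0. Bub1b, the checkpoint protein BubR1, had 10.1, 4.97, 13.8, 15.8 and 2.75 CPM in Tumor, against 16.6, 16.0, 21.1, 22.9 and 15.9 CPM in WT (ENSMUSG00000040084, chromosome 2, 118598211 to 118641591). Every Tumor library lay below every WT library, though Tumor 4 missed WT 5 narrowly. In all, 1 of the 40 genes had this order (2.5%, against 1.57% of all genes tested), and 2 of the 40, Mcm6 and Pcna, had the opposite one (5%, against 4.38% of all genes). Bub1b had a log2 fold change of -0.96 ± 0.67 (SE; 95% interval -2.37 to 0.46; edgeR adjusted p = 0.491).

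Bub1, the checkpoint kinase, had 10.1, 21.5, 10.1, 9.41 and 19.7 CPM in Tumor, against 22.7, 17.1, 54.0, 6.91 and 17.7 CPM in WT (ENSMUSG00000027379, chromosome 2, 127801122 to 127831865). WT 3 stood far above the rest, and the other WT libraries overlapped Tumor. Bub1 had a log2 fold change of -0.74 ± 0.64 (SE; edgeR adjusted p = 0.582), and -0.17 without WT 3. Aurka, the kinase of the centrosomes, had 8.99, 24.4, 5.03, 0.71 and 4.13 CPM in Tumor, against 10.1, 26.5, 49.3, 5.46 and 7.26 CPM in WT (ENSMUSG00000027496, chromosome 2, 172356190 to 172370535). WT 3 was again the highest, and Tumor 4 the lowest with 4 counts. Aurka had a log2 fold change of -1.2 ± 0.87 (SE; edgeR adjusted p = 0.505), and -0.53 without WT 3. Aurkb, the kinase of the chromosomal passenger complex, averaged 7.58 ± 8.10 CPM in Tumor and 7.88 ± 5.71 CPM in WT, and Plk1, a kinase of mitotic entry and spindle assembly, averaged 9.04 ± 5.23 CPM in Tumor and 7.90 ± 3.88 CPM in WT (log2 fold changes -0.06 ± 0.96 and 0.19 ± 0.78).

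The 9 genes of the chromosomal passenger complex, kinetochore, spindle and motors had a median log2 fold change of 0.05. Of these, 5 were above 0, against 43.8% of all genes, and 0 were called. Stmn1, which destabilises microtubules, had 79.2, 84.5, 125, 94.4 and 78.7 CPM in Tumor, against 91.3, 173, 5.16, 14.6 and 4.54 CPM in WT (ENSMUSG00000028832, chromosome 4, 134468320 to 134473843). The Tumor libraries lay close together, while WT 1 and WT 2 reached or passed them and WT 3, WT 4 and WT 5 lay far below. Stmn1 had a log2 fold change of 0.67 ± 0.78 (SE; edgeR adjusted p = 0.690). Against WT 3, WT 4 and WT 5 alone it was 3.50 (edgeR adjusted p = 0.00308), and against WT 1 and WT 2 alone it was -0.55. In WT 3, WT 4 and WT 5 Stmn1 had only 11, 40 and 10 counts. Its density in WT 3 and WT 5 (2.69 and 2.36 CPM per kilobase) lay below the receptor gene density (4.20 and 3.46).

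Birc5, the survivin subunit of the passenger complex, had 64.9, 22.0, 55.0, 62.3 and 18.6 CPM in Tumor, against 48.9, 81.7, 49.8, 10.6 and 6.80 CPM in WT (ENSMUSG00000017716, chromosome 11, 117849251 to 117855743). The groups overlapped, with a log2 fold change of 0.17 ± 0.63 for Birc5 (SE; edgeR adjusted p = 0.916). Cenpf, a large protein of the outer kinetochore, had 28.7, 22.0, 23.2, 21.8 and 48.4 CPM in Tumor, against 28.8, 35.2, 14.6, 37.5 and 23.1 CPM in WT (ENSMUSG00000026605, chromosome 1, 189640606 to 189688086). Cenpf averaged 28.8 ± 11.3 CPM in Tumor and 27.8 ± 9.32 CPM in WT (SD, n = 5 each), with a log2 fold change of 0.05 ± 0.51 and a 95% interval of -1.02 to 1.12 (edgeR adjusted p = 0.974).

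The rest of the spindle genes pointed in both directions. Cenpe, a kinesin at the kinetochore, averaged 18.6 ± 8.82 CPM in Tumor and 35.7 ± 16.4 CPM in WT (log2 fold change -0.93 ± 0.58; edgeR adjusted p = 0.429), with 3.73 CPM in Tumor 2 and 64.3 CPM in WT 3. Cdca8, the borealin subunit of the passenger complex, averaged 25.3 ± 8.94 CPM in Tumor and 18.3 ± 12.6 CPM in WT (log2 fold change 0.46 ± 0.64). Kif11, the motor that separates spindle poles, averaged 23.5 ± 11.3 CPM in Tumor and 26.0 ± 16.3 CPM in WT (log2 fold change -0.14 ± 0.63). Kif20a, a motor of cytokinesis, averaged 8.31 ± 8.12 CPM in Tumor and 4.73 ± 2.68 CPM in WT (log2 fold change 0.81 ± 0.92). The microtubule proteins Tpx2 and Nusap1 had log2 fold changes of -0.58 ± 0.68 and -0.19 ± 0.66. Tpx2 reached at most 19.1 CPM in Tumor, against 59.6 CPM in WT 3. Nusap1 reached at most 32.8 CPM in Tumor, against 66.2 CPM in WT 3.

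WT 3 was the highest of all 10 libraries for 5 of the 24 G2/M genes, namely Aurka, Bub1, Cenpe, Tpx2 and Nusap1, at 49.3 to 66.2 CPM. It was among the lowest for Ccna2, Ccnb1, Cdk1, Cdca8, Stmn1 and Ube2c, at 0.469 to 5.16 CPM. It was also the shallowest library, with 1676229 counts, and held the highest receptor gene density and the highest plasma cell sum. What part these had in its values was not tested, and how often WT 3 was highest over all genes was not counted.

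Cdc20, which activates the anaphase-promoting complex, had 7.31, 20.7, 27.4, 5.86 and 15.6 CPM in Tumor, against 24.8, 26.3, 21.1, 8.73 and 6.35 CPM in WT (ENSMUSG00000006398, chromosome 4, 118432901 to 118437352). The groups overlapped, with a log2 fold change of -0.19 ± 0.67 for Cdc20 (SE; edgeR adjusted p = 0.912). Ube2c, the ubiquitin-conjugating enzyme of the same complex, had 33.2, 21.5, 46.4, 22.4 and 26.8 CPM in Tumor, against 45.9, 64.4, 0.469, 2.18 and 62.6 CPM in WT (ENSMUSG00000001403, chromosome 2, 164769898 to 164778822). The Tumor libraries lay between 2 clusters of WT libraries, WT 3 and WT 4 below them and WT 1, WT 2 and WT 5 at or above them. Ube2c had a log2 fold change of -0.23 ± 0.81 (SE; edgeR adjusted p = 0.911). Cdc20 overlaps Elovl1, and Ube2c overlaps Tnnc2, on the opposite strand.

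The chromatin and proliferation markers Hmgb2, Mki67 and Top2a all had log2 fold changes above 0 (median 0.85), against 43.8% of all genes, and none was called. Hmgb2, a DNA-bending chromatin protein abundant in dividing cells, had 224, 349, 401, 293 and 184 CPM in Tumor, against 143, 268, 85.9, 149 and 28.1 CPM in WT (ENSMUSG00000054717, chromosome 8, 57511907 to 57515999). WT 2 alone reached into the Tumor range. Hmgb2 had a log2 fold change of 1.11 ± 0.63 (SE; 95% interval -0.22 to 2.43; edgeR adjusted p = 0.394). Mki67, the Ki-67 antigen that coats mitotic chromosomes, had 77.0, 152, 91.2, 57.2 and 103 CPM in Tumor, against 39.8, 94.2, 89.2, 25.1 and 18.1 CPM in WT (ENSMUSG00000031004, chromosome 7, 135689784 to 135716361). WT 2 and WT 3 lay within the Tumor range. Mki67 had a log2 fold change of 0.85 ± 0.55 (SE; 95% interval -0.31 to 2.01; edgeR adjusted p = 0.455).

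Top2a, the topoisomerase that untangles sister chromatids, had 81.2, 87.9, 69.8, 151 and 57.4 CPM in Tumor, against 62.2, 73.2, 21.1, 65.1 and 36.7 CPM in WT (ENSMUSG00000020914, chromosome 11, 98992943 to 99024189). Tumor 5 and Tumor 3 overlapped WT, and the other Tumor libraries lay above it. Top2a had a log2 fold change of 0.79 ± 0.50 (SE; 95% interval -0.27 to 1.84; edgeR adjusted p = 0.447). The highest levels per kilobase of gene length belonged to Hmgb2, at 96.7 CPM per kilobase in Tumor and 44.8 in WT. Pcna followed in Tumor, at 59.3 CPM per kilobase, against 25.8 in WT, and Stmn1 stood at 48.1 CPM per kilobase in Tumor, against 30.0 in WT. Near the other end, Cenpf stood at 1.87 CPM per kilobase in Tumor and 1.80 in WT.

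Low levels limited what could be seen. At or below the receptor gene density of their own library lay 6, 8, 1, 1 and 4 of the 40 genes in Tumor 1 to Tumor 5, against 5, 2, 22, 15 and 27 of them in WT 1 to WT 5. Fewer than 10 counts were found for 3, 7, 0, 1 and 1 of the 40 in Tumor, against 2, 0, 11, 5 and 4 in WT. The ratio of the highest to the lowest library was wider in WT than in Tumor for 26 of the 40 genes, and the share over all genes was not taken.

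The comparison moved with the WT libraries used. Without WT 1 and WT 2, which had the highest epithelial sums, the median log2 fold change was 1.41 for G1/S genes and 0.77 for G2/M genes, against -0.17 for all genes, and 1 of the 40 was called (Stmn1), against 6.4% of all genes higher. Without WT 3, WT 4 and WT 5 the medians were 0.81 for G1/S genes and -0.39 for G2/M genes, against 0.01 for all genes, and 1 of the 40 was called (Mcm6, 2.18, edgeR adjusted p = 0.0190), against 2.32% of all genes higher. The median of Mcm2 to Mcm7 was 1.88 without WT 1 and WT 2 and 1.61 without WT 3, WT 4 and WT 5. Cdk1 had log2 fold changes of 2.25 and -0.64 in these 2 fits, and Ccnb2 had 1.81 and -0.91. WT 1 or WT 2 was the highest WT library for 13 of the 24 G2/M genes and 6 of the 16 G1/S genes. The share over all genes was not taken, so these counts are not shown to be particular to the 40. Crypt base and progenitor genes, which mark the dividing compartment of the epithelium, summed to between 156 and 404 CPM in Tumor and to 304 and 602 CPM in WT 1 and WT 2, against 344, 196 and 244 CPM in WT 3, WT 4 and WT 5. The part of epithelial transcripts in the cell cycle values was not tested.

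**Figure D5:**
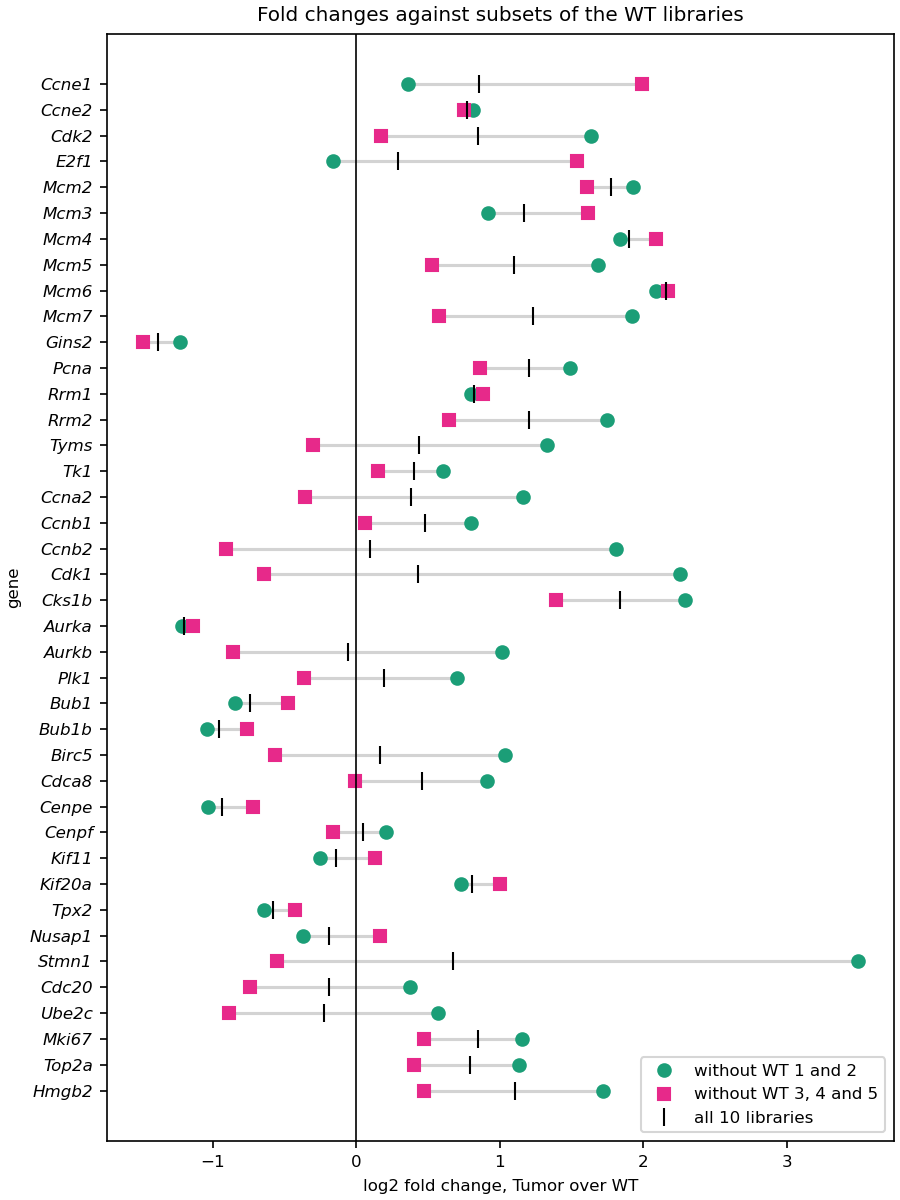
Log2 fold change, Tumor over WT, of each of the 40 genes with TMM scaling, against all 5 WT libraries (black ticks), without WT 1 and WT 2 (green circles) and without WT 3, WT 4 and WT 5 (pink squares). Mcm2, Mcm3, Mcm4, Mcm6 and the G2/M gene Cks1b stay at 0.91 or above with either subset. Stmn1, Cdk1 and Ccnb2 lie on opposite sides of 0. With pan-T scaling and all libraries all 40 values are below 0.

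Of 122 further genes in 7 lists, 119 were tested, 1 was called higher (0.840%, against 1.37% of all genes) and 0 lower (against 0.219%) in edgeR, and their median log2 fold change was 0.07, against -0.20 for all genes. At an unadjusted p below 0.05 in edgeR 22 were higher (18.5%, against 7.75% of all genes) and 4 lower (3.36%, against 8.31%). DESeq2 called 6 higher (5.04%, against 3.18%) and 2 lower (1.68%, against 4.53%). The called gene was Rbl2, which encodes p130, the RB family repressor of the DREAM complex in resting cells. Rbl2 had 74.7, 61.3, 86.5, 93.7 and 55.5 CPM in Tumor, against 28.1, 18.8, 16.0, 10.2 and 13.2 CPM in WT, without overlap. Rbl2 rose by 2.10 ± 0.48 on the log2 scale (SE; edgeR adjusted p = 0.0325), while with pan-T scaling it stood at -1.66 ± 0.82 (adjusted p = 0.0578, edgeR). It was 1 of 17 genes of the RB, E2F, DREAM and FoxM1 list, whose median was -0.10.

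In the other lists 0 genes were called in edgeR, and the 2 most abundant genes of each are given. The D cyclin Ccnd2 averaged 789 ± 248 CPM in Tumor and 167 ± 137 CPM in WT, and its kinase Cdk6 averaged 199 ± 88.9 CPM in Tumor and 63.1 ± 23.6 CPM in WT (log2 fold changes 2.24 ± 0.72 and 1.65 ± 0.56; edgeR adjusted p = 0.135 and 0.154). The antiproliferative genes Btg1 and Btg2 had log2 fold changes of 2.03 ± 0.67 and 1.40 ± 0.76 (edgeR adjusted p = 0.147 and 0.370). The kinase inhibitors Cdkn1a (p21) and Cdkn1b (p27) had log2 fold changes of 0.07 ± 0.76 and 1.22 ± 0.49 (edgeR adjusted p = 0.9746 and 0.231). Ccnd2, Cdk6, Btg1, Btg2, Cdkn1a and Cdkn1b all stood below 0 with pan-T scaling. Of the 31 further replication genes tested, 21 had log2 fold changes above 0 and 10 below (median 0.59), against 43.8% of all genes above 0. Origin licensing and firing genes of that list lay on both sides, such as Orc1 (-1.82), Cdc45 (-0.68), Gins1 (1.23) and Gins4 (1.57). These genes are named as examples, outside the rule of abundance. Lig1, the ligase of lagging strands, averaged 139 ± 39.4 CPM in Tumor and 34.9 ± 16.5 CPM in WT (1.99 ± 0.53; edgeR adjusted p = 0.0655). Slbp, which binds histone mRNA, stood at 1.27 ± 0.51 (edgeR adjusted p = 0.229).

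Of the 43 further mitosis genes, 20 had log2 fold changes above 0 (median -0.05), against 43.8% of all genes. The condensin subunit Smc4 and the centromeric histone Cenpa were at 1.42 ± 0.53 and 1.34 ± 0.51 (edgeR adjusted p = 0.199 and 0.212). Of the 13 genes of the damage checkpoint and repair, 4 were above 0 (median -0.28), again against 43.8% of all genes. The checkpoint kinase Atr stood at -0.85 ± 0.52 and the p53 ligase Mdm2 at 1.58 ± 0.49 (edgeR adjusted p = 0.425 and 0.118). Replication genes had higher medians than mitosis genes in the 40 genes and in the further lists. The difference between the 2 classes was not tested, and with pan-T scaling both lay below 0 (medians -3.09 and -3.42 in the further lists).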

How the data were processed

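Gene expression was measured by Smart-seq2 in 10 libraries of colon cells sorted as Tregs, 5 Tumor and 5 WT, grouped by their titles. The deposited values are raw read counts per gene, not normalized. Per the submitters' processing notes the build named is mm10, and the tools named are HISAT2 2.0.5, an aligner, and featureCounts 1.5.0-p3, a read counter. How strand and multiply mapped reads were handled, and from which annotation release, is not given in the sources used here, so overlapping genes and near-identical copies are uncertain. The 10 single-sample files held the same values as the table used. Total counts per library are in the report, and fewer counts give wider error. The 95% intervals rest on the spread between libraries, while the floor of 3 counts covers counting error only. Of 45 library pairs, none agreed within sampling noise (lowest chi-square per degree of freedom 25.7).

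Counts were analysed with R 4.3.3 and edgeR 4.0.16: filterByExpr (minimum count 10, minimum total 15), TMM scaling, robust quasi-likelihood F tests (2-sided, group as the only term, all 10 libraries), and Benjamini-Hochberg adjustment over 21414 genes with a threshold of 0.05. Dispersion was high (common value 0.742; biological coefficient of variation 86.1%). Standard errors are the log2 fold change over the root of F. CPM are TMM scaled. The steps were tested on simulated data. Alternatives were edgeR's relative log expression size factors, no composition factors, scaling to the geometric mean of 14 pan-T gene counts plus 1, DESeq2 1.42.0, limma 3.58.1 (voom), a stricter filter (10 CPM in 5 libraries) or none, a replicate block, a threshold of 0.01, and leaving out WT 1 and WT 2, WT 3 to WT 5, or each library.

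The 40 genes, the 16 further lists and the rules were chosen with earlier results of these data known. Values of every library are given for up to 3 genes per role with the highest mean CPM, and for the highest and lowest log2 fold change; Cdk1 was added after its values were seen. In the other lists the called genes are named, or the 2 with the highest mean CPM. Orc1, Cdc45, Gins1 and Gins4 were named outside this rule. All 40 identifiers matched the gene name table. Promoters came from RefSeq (GRCm38.p6).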

Additional observations from a re-analysis of the deposited data

Results flagged for a closer look

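Within-group spread was checked in 86 groups of 5 libraries, and 2 held a library whose gap to its nearest neighbour passed Dixon's 95% critical value of 0.71 of the group's range; chance gives about 1 in 20. Cdk1 was at 1.30 log2 CPM in Tumor 1 (1.97 CPM, 7 counts), below the other Tumor libraries. Cenpe was at 2.08 log2 CPM in Tumor 2 (3.73 CPM, 9 counts), again below the other Tumor libraries.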

How the results depend on the processing

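Among the 40 genes, DESeq2 called 2 higher, and limma voom, no filter on low counts, leaving out WT 1 and WT 2, and leaving out WT 3 to WT 5 called 1 each, while leaving out each library in turn gave 0 to 1; pan-T scaling called 35 lower. Other size factors, no composition factors and the filter of 10 CPM (which tested 33 of the 40) called 0. All genes called higher numbered 19 with pan-T scaling, 682 with DESeq2, 474 with limma voom, 479 without a filter, 1615 without WT 1 and WT 2, 696 without WT 3 to WT 5, 52 at an adjusted p below 0.01, and 63 to 350 leaving out each library. All genes called lower numbered 19519 with pan-T scaling, 969 with DESeq2, 341 without a filter, 378 without WT 1 and WT 2, 629 without WT 3 to WT 5, 0 at an adjusted p below 0.01 (52 higher), and 2 to 72 leaving out each library. Leaving out Tumor 1, 2, 3 or 4 or WT 1 moved the higher count by over 1.5 times (120, 75, 63, 105 and 63), and leaving out Tumor 1, 2, 3, 4 or 5 or WT 1 (7, 6, 2, 2, 17 and 6) or WT 4 (72) moved the lower one. Deviations of libraries with the same replicate number correlated at -0.13 to 0.04 over all genes tested. No pairing by number was seen, but libraries also differ in cell type transcripts, so a low correlation cannot exclude a shared preparation. With the number as a replicate block 0 of the 40 genes and 138 (higher) and 3 (lower) of all genes were called. RLE size factors, no composition factors and pan-T scaling moved the median of all genes by -0.18, -0.21 and -3.47.

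Medians, whose alternatives were chosen after seeing the data, moved with pan-T scaling (-3.05 for all 40 genes, -2.46 for G1/S, -3.33 for G2/M), without WT 1 and WT 2 (0.91, 1.41 and 0.77) and, for G2/M, without WT 3 to WT 5 (-0.39). Of 793 values of single genes, 88 changed sign, none of them called on TMM. With pan-T scaling 29 did: Ccne1 -1.86, Ccne2 -2.62, Cdk2 -2.79, E2f1 -2.81, Mcm2 -1.85, Mcm3 -1.91, Mcm4 -1.69, Mcm5 -2.53, Mcm6 -0.99, Mcm7 -2.39, Pcna -2.24, Rrm1 -2.72, Rrm2 -2.25, Tyms -3.22, Tk1 -3.06, Ccna2 -3.16, Ccnb1 -2.82, Ccnb2 -3.73, Cdk1 -3.30, Cks1b -1.74, Plk1 -3.35, Birc5 -3.41, Cdca8 -3.26, Cenpf -3.30, Kif20a -2.65, Stmn1 -3.05, Mki67 -2.46, Top2a -2.77 and Hmgb2 -2.38. Without WT 3 to WT 5 they were Tyms -0.30, Ccna2 -0.36, Ccnb2 -0.91, Cdk1 -0.64, Plk1 -0.36, Birc5 -0.57, Cdca8 -0.011, Cenpf -0.16, Kif11 0.13, Nusap1 0.17 and Stmn1 -0.55. Without WT 1 and WT 2 they were E2f1 -0.16, Aurkb 1.02, Cdc20 0.37 and Ube2c 0.57. E2f1 was at -0.0088 with RLE size factors and -0.0020 with DESeq2. Cenpf was at -0.12 with both of these, -0.062 without composition factors, -0.0065 with limma voom and -0.23 with the filter of 10 CPM. Limma voom gave Kif11 0.068, Nusap1 0.25 and Ube2c 0.75, no filter gave Aurkb 0.11 and Kif11 0.079, and the replicate block gave Kif11 0.034, Nusap1 0.30 and Ube2c 0.67. Leaving out each library, sign changed within the ranges of Ccne1 (-0.0063 to 1.81), E2f1 (-0.26 to 0.83), Ccnb2 (-0.18 to 0.70), Aurkb (-0.82 to 0.35), Plk1 (-0.15 to 0.56), Birc5 (-0.10 to 0.69), Cenpf (-0.19 to 0.21), Kif11 (-0.38 to 0.19), Tpx2 (-0.82 to 0.18), Nusap1 (-0.48 to 0.51), Cdc20 (-0.45 to 0.061) and Ube2c (-0.51 to 0.21). The causes were not tested. Counts under 10 in up to 11 of the 40 genes per library limit the low genes most.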
